A study of Mus musculus with 12 samples.

Results

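The genes described here convert steroids or carry their signal in fat. They were the enzymes Hsd11b1, Akr1c18, Akr1c14 and Srd5a1, the nuclear receptors Nr3c1, Nr3c2, Esr1 and Pgr, and Fkbp5, a co-chaperone of steroid receptors. They were chosen by gene symbol, and all 9 were found among the 47729 genes listed for each library. Adipose RNA of wild-type C57BL/6J males fed a high-fat diet was sequenced in 12 libraries, 3 a depot. The 4 sites sampled were brown fat between the shoulder blades (interscapular, BAT) and the retroperitoneal (RWAT), inguinal (IWAT) and epididymal (EWAT) white fat. Every library was labelled as surgically denervated, so depots of denervated fat were compared and no innervated fat and no other diet was analysed here. The series text gave an age of 6 to 10 weeks without saying at which step. Whether the 3 libraries of a depot came from different animals was not stated, so a p-value here measures only how these libraries vary, which may be technical variation.

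Steroid hormones reach fat through the blood and can be activated or inactivated inside the cell before they bind a receptor. Hsd11b1 turns inert glucocorticoid back into the active hormone in the endoplasmic reticulum, with reducing power from H6pd, and Hsd11b2 runs the opposite reaction. The receptors of this group are transcription factors that wait for hormone in complexes of heat shock proteins and immunophilins, to which Fkbp5 belongs.

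Total expected counts ran from 12933516 to 21106554 per library, and 3 counts, the floor used here, equalled 0.134 to 0.227 CPM, which are counts scaled to the size of each library. Levels are given in TPM, a relative abundance that is also scaled by transcript length, and differences were tested on counts. Over all tested genes the median log2 ratio of mean TPM was -0.29 for BAT against IWAT, -0.21 for BAT against RWAT, 0.23 for IWAT against EWAT and 0.14 for RWAT against EWAT. In CPM it was -0.02, 0.01, 0.02 and -0.01 in the same order, so TPM differences of that size between these depots lie within the scaling. Single libraries of a depot could differ more between the scales. Nr3c1 stood at 60.6, 24.7 and 45.1 TPM in EWAT 1 to 3 but at 152, 149 and 162 CPM. The spread of TPM within a depot can thus hold scaling too. The BAT label was set against its markers. Ucp1, the uncoupling protein of brown fat, stood at 792 TPM in BAT 1 but at 0.21 TPM in BAT 2 and 1.02 TPM in BAT 3. Cidea and Cox8b, other brown fat markers, stood at 237 and 664 TPM in BAT 1. They stood at 0.66 and 0.23 TPM in BAT 2 and at 1.99 and 8.96 TPM in BAT 3. The summed TPM of 7 brown adipocyte markers was 1711, 18.1 and 27.0 in BAT 1 to 3, and 28.4 to 256 in IWAT. Zic1 and Lhx8, transcription factors of interscapular brown fat, stood at 2.54 to 8.97 TPM and 6.14 to 7.88 TPM in the 3 BAT libraries, against at most 0.59 and 2.70 TPM in the white depots. The summed TPM of 9 skeletal muscle markers was 1891 in RWAT 3, 449 in RWAT 1 and 18.0 in RWAT 2.

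All 9 genes had their highest mean in IWAT, on the TPM and the CPM scale, though Pgr was near the floor everywhere and Srd5a1 and Fkbp5 overlapped between all depots. EWAT had the lowest mean TPM except for Srd5a1 and Pgr, which were lowest in RWAT, as was Hsd11b1 on the CPM scale. In bulk tissue fewer cells of a type and less RNA per cell cannot be told apart. In IWAT against EWAT, 3 of the 8 tested genes passed the threshold, an adjusted p below 0.05 in the edgeR quasi-likelihood test, and all 3 were higher in IWAT: Akr1c18, Nr3c2 and Akr1c14. Over all 18942 genes tested, 9.03% passed in that comparison, 4.43% higher and 4.6% lower. The median log2 fold change of the 8 genes was 2.01, beside 0.02 over all genes, and 6 of the 8 had an unadjusted p below 0.05, beside 29.7% of all genes. On the CPM scale 6 of the 9 genes had every IWAT library above every EWAT library, a pattern that 17.3% of all tested genes showed, and the same 6 genes did so in TPM (16.4% of all genes). These calls rested on few libraries. The count was 0 of the 8 genes without EWAT 3, without IWAT 1 or without IWAT 2, 1 without EWAT 1, and 6 without BAT 2, without BAT 3 or without both.

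**Figure D1:**
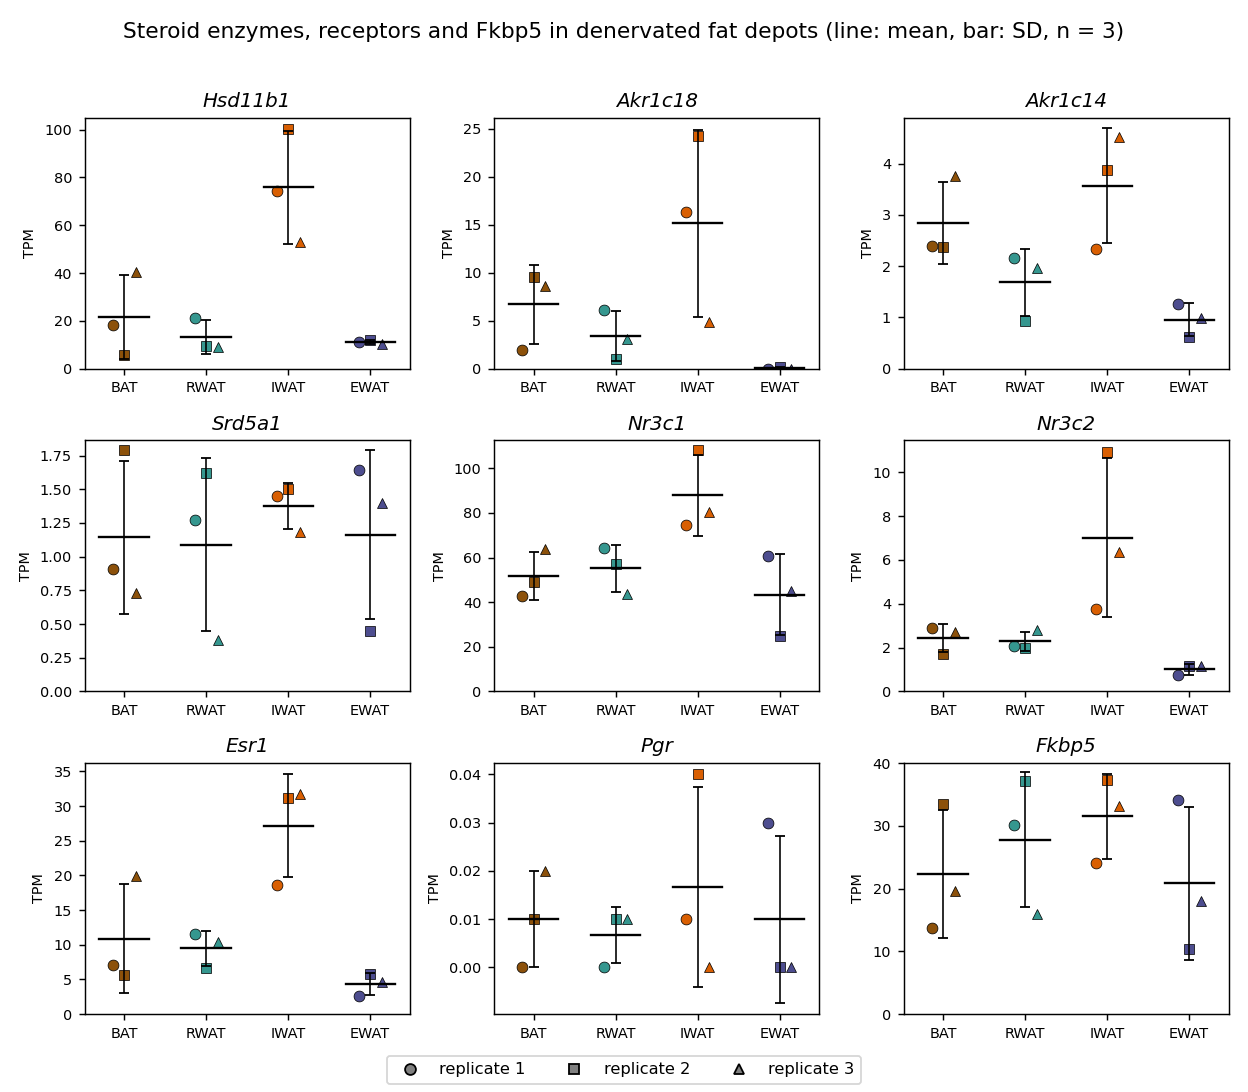
TPM of each gene in each library of denervated BAT, RWAT, IWAT and EWAT, with the mean as a line and the SD as a bar (n = 3 libraries). IWAT has the highest mean in all 9 panels, and Akr1c18 is at or near 0 in the 3 EWAT libraries.

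Akr1c18, a reductase of the aldo-keto family that inactivates progesterone, differed most between depots. It stood at 2.00, 9.50 and 8.58 TPM in BAT 1 to 3, at 6.16, 1.03 and 3.10 TPM in RWAT 1 to 3, at 16.3, 24.3 and 4.89 TPM in IWAT 1 to 3, and at 0, 0.18 and 0 TPM in EWAT 1 to 3. Every library of the other depots was above every EWAT library, while BAT, RWAT and IWAT overlapped. The libraries held 402 counts in BAT, 187 in RWAT and 800 in IWAT, against 5 in EWAT, every one of them in EWAT 2. With 0 counts, EWAT 1 and EWAT 3 allow up to 0.143 and 0.147 CPM. The summed count per library size was 173 times as high in IWAT as in EWAT (95% exact interval 73.6 to 533, for counting error only). It was 83.6 times as high in BAT as in EWAT (35.5 to 259) and 39.5 times as high in RWAT as in EWAT (16.6 to 123). In IWAT against EWAT the log2 fold change was 7.28 ± 1.24 (SE), higher in IWAT (edgeR, adjusted p = 0.0155), and it ranged from 4.56 to 11.1 over 26 alternatives. The call was lost without EWAT 3 (edgeR, adjusted p = 0.0591), without IWAT 1 (0.0568) and without IWAT 2 (0.0662).

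Akr1c14, which reduces dihydrosteroids such as dihydrotestosterone to weaker products, lies beside Akr1c18 on chromosome 13. It stood at 2.39, 2.37 and 3.76 TPM in BAT, at 2.15, 0.94 and 1.97 TPM in RWAT, at 2.33, 3.87 and 4.51 TPM in IWAT and at 1.26, 0.62 and 0.99 TPM in EWAT. The lowest IWAT library was above all EWAT libraries, and IWAT and BAT overlapped. The log2 fold change in IWAT against EWAT was 1.99 ± 0.46 (SE), higher in IWAT (edgeR, adjusted p = 0.0308). This call was lost in 6 of 26 alternatives, against 4 for Nr3c2 and 3 for Akr1c18. The adjusted p in edgeR was 0.0866 without EWAT 1, 0.104 without EWAT 3, 0.0820 without IWAT 1, 0.0838 without IWAT 2, and 0.0600 in the fit blocked on replicate number. RSEM gave a posterior SD of 0 counts for both Akr1c genes in every library.

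On GRCm38 (GENCODE M21), Akr1c14 spans chr13:4049011-4090688 on the plus strand and Akr1c18 spans chr13:4132615-4150654 on the minus strand, and both are protein-coding. Their GENCODE starts lie 101643 bases apart and the genes are transcribed toward each other. The stretches from 250 to 11 bases before each RefSeq start (GRCm38.p6) are shown because these neighbours rose together in IWAT against EWAT. Capitals mark the 3 longest runs that both stretches share, of 8 bases each, and each line reads 5′ to 3′ on the strand of its gene. The Akr1c18 stretch is chr13:4150657-4150896 on the minus strand, and the Akr1c14 stretch is chr13:4059341-4059580 on the plus strand. The Akr1c14 stretch lies inside the GENCODE span of that gene, because RefSeq places its start further in.
Akr1c18: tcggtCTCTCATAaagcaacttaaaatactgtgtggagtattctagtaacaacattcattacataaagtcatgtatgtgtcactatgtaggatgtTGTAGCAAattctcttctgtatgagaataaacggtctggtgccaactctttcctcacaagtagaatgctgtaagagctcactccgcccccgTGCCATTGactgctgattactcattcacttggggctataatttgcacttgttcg
Akr1c14: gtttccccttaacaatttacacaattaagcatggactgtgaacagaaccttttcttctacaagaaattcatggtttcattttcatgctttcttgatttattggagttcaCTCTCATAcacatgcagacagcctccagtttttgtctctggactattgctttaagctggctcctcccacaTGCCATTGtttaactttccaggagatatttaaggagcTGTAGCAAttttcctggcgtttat

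The run TGCCATTG lies 64 to 57 bases before the start of Akr1c18 and 71 to 64 bases before that of Akr1c14, and 0.837% of 32851 RefSeq promoter stretches of the same length hold it. The other shared runs, CTCTCATA and TGTAGCAA, lie at unlike distances in both genes and occur in 0.493% and 0.530% of the stretches. Motifs of steroid receptors were searched on both strands in the stretches of the genes with a RefSeq entry, all but Nr3c1. The hexamer AGAACA, bound by glucocorticoid, mineralocorticoid and progesterone receptors, was in no stretch of these genes, while 15.5% of all stretches hold it. Nor was the palindrome made of that hexamer, 3 bases and its reverse complement, which overlaps the hexamer search (0.00913% of all stretches), or that of GGTCA, 3 bases and its reverse complement, bound by oestrogen receptors (0.0578%). This says only that these letters are not in these windows.

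Hsd11b1 (chr1:193221634-193264075, minus strand) was the most abundant of the 4 enzymes by mean TPM in every depot. It stood at 18.4, 5.71 and 40.5 TPM in BAT, at 21.4, 9.51 and 9.0 TPM in RWAT, at 74.5, 100.2 and 53.0 TPM in IWAT and at 11.3, 12.1 and 10.6 TPM in EWAT. All 3 IWAT libraries were above the other 9 in TPM, and BAT 2 was the lowest of all 12. In IWAT against EWAT its log2 fold change was 2.41 ± 0.70 (SE; edgeR, adjusted p = 0.0538), just outside the threshold, and 7 of 26 alternatives brought it inside. In RWAT against IWAT it was -2.49 ± 0.71 (edgeR, adjusted p = 0.151). In BAT against IWAT it was -1.5 ± 0.68 (edgeR, adjusted p = 0.403), and BAT 3 exceeded IWAT 3 on the CPM scale.

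The partners of Hsd11b1 did not pass the test in IWAT against EWAT. H6pd averaged 112 ± 60.7 TPM in IWAT and 63.1 ± 17.7 TPM in EWAT (SD, n = 3 each; edgeR, adjusted p = 0.369). Hsd11b2, which inactivates glucocorticoid, averaged 0.363 ± 0.126 TPM in BAT, 0.657 ± 0.336 TPM in RWAT, 0.433 ± 0.0306 TPM in IWAT and 0.453 ± 0.0577 TPM in EWAT.

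Srd5a1 (chr13:69573449-69611442, minus strand), which turns testosterone into dihydrotestosterone, was low in every depot. It stood at 0.91, 1.79 and 0.73 TPM in BAT, at 1.27, 1.62 and 0.38 TPM in RWAT, at 1.45, 1.5 and 1.18 TPM in IWAT and at 1.64, 0.45 and 1.40 TPM in EWAT. All depots overlapped. Between IWAT and EWAT the log2 fold change was 0.26 ± 0.43 (SE; edgeR, adjusted p = 0.746), and it was -0.15 without IWAT 1. The other reductase of this reaction, Srd5a2, had 0 counts in all 12 libraries, and Srd5a3, a related reductase, averaged 19.6 ± 4.27 TPM in BAT, 28.9 ± 8.85 TPM in RWAT, 21.3 ± 3.96 TPM in IWAT and 24.1 ± 13 TPM in EWAT.

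Among the receptors, Nr3c2 rose in IWAT against EWAT. Nr3c2 (chr8:76899442-77245012, plus strand) encodes the mineralocorticoid receptor, which also binds glucocorticoid. It stood at 2.90, 1.69 and 2.71 TPM in BAT, at 2.05, 1.99 and 2.80 TPM in RWAT, at 3.76, 10.9 and 6.34 TPM in IWAT and at 0.73, 1.14 and 1.15 TPM in EWAT. The IWAT libraries were above the other 9, the EWAT libraries below them, and BAT and RWAT overlapped; on the CPM scale EWAT 2 (6.51 CPM) lay among the BAT and RWAT libraries. The log2 fold change in IWAT against EWAT was 2.03 ± 0.40 (SE; edgeR, adjusted p = 0.0208). The call was lost without EWAT 1 (edgeR, adjusted p = 0.0533), EWAT 3 (0.0794), IWAT 1 (0.0596) or IWAT 2 (0.0783). In RWAT against IWAT the log2 fold change was -1.32 ± 0.39 (edgeR, adjusted p = 0.152).

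Nr3c1 (chromosome 18, minus strand), the glucocorticoid receptor, had the highest mean TPM of the 9 genes in every depot. It stood at 42.9, 49.0 and 63.7 TPM in BAT, at 64.4, 57.3 and 43.7 TPM in RWAT, at 74.8, 108 and 80.4 TPM in IWAT and at 60.6, 24.7 and 45.1 TPM in EWAT. The IWAT libraries were above the other 9 in TPM, and BAT, RWAT and EWAT overlapped, but on the CPM scale BAT 3 (252 CPM) exceeded IWAT 3 (226 CPM). Its log2 fold change in IWAT against EWAT was 0.87 ± 0.25 (SE; edgeR, adjusted p = 0.0527), and 7 of 26 alternatives brought it inside the threshold. Nr3c1 exceeded Nr3c2 in TPM in every library.

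Esr1 (chr10:4611593-5005614, plus strand), the alpha form of the oestrogen receptor, stood at 7.07, 5.63 and 20.0 TPM in BAT, at 11.5, 6.63 and 10.3 TPM in RWAT, at 18.6, 31.2 and 31.7 TPM in IWAT and at 2.66, 5.85 and 4.56 TPM in EWAT. IWAT did not overlap EWAT, and BAT 3 lay within the range of IWAT. The log2 fold change in IWAT against EWAT was 2.08 ± 0.63 (SE; edgeR, adjusted p = 0.0589), which 8 of 26 alternatives brought inside the threshold. Esr2, the beta form, averaged 0.217 ± 0.0321 TPM in BAT, 0.240 ± 0.0557 TPM in RWAT, 0.230 ± 0.118 TPM in IWAT and 0.190 ± 0.176 TPM in EWAT.

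Pgr (chr9:8899833-8968611, plus strand), the progesterone receptor, was not detectable at this depth in most libraries and was not tested. It had 3 counts in BAT, 2 in RWAT, 5 in IWAT and 3 in EWAT over 3 libraries each, and at most 0.04 TPM in any library. The receptor of the hormone that Akr1c18 inactivates was thus near the floor in IWAT too, where Akr1c18 was highest. Pgrmc1 and Pgrmc2, membrane proteins that bind progesterone, averaged 77.4 ± 12.9 and 50.8 ± 14.8 TPM in IWAT and 52.4 ± 14.6 and 24.6 ± 9.14 TPM in EWAT.

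Fkbp5 (chr17:28399094-28517527, minus strand) lowers the affinity of the glucocorticoid receptor for its hormone and is itself induced by glucocorticoid. It stood at 13.7, 33.6 and 19.7 TPM in BAT, at 30.2, 37.1 and 16 TPM in RWAT, at 24.1, 37.4 and 33.3 TPM in IWAT and at 34.2, 10.3 and 18.1 TPM in EWAT. All depots overlapped, and each held a library above 33 TPM. For IWAT against EWAT the log2 fold change was 0.31 ± 0.24 (SE; edgeR, adjusted p = 0.421), and in BAT against IWAT it was -0.16 ± 0.24 (adjusted p = 0.804 in edgeR).

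**Figure D2:**
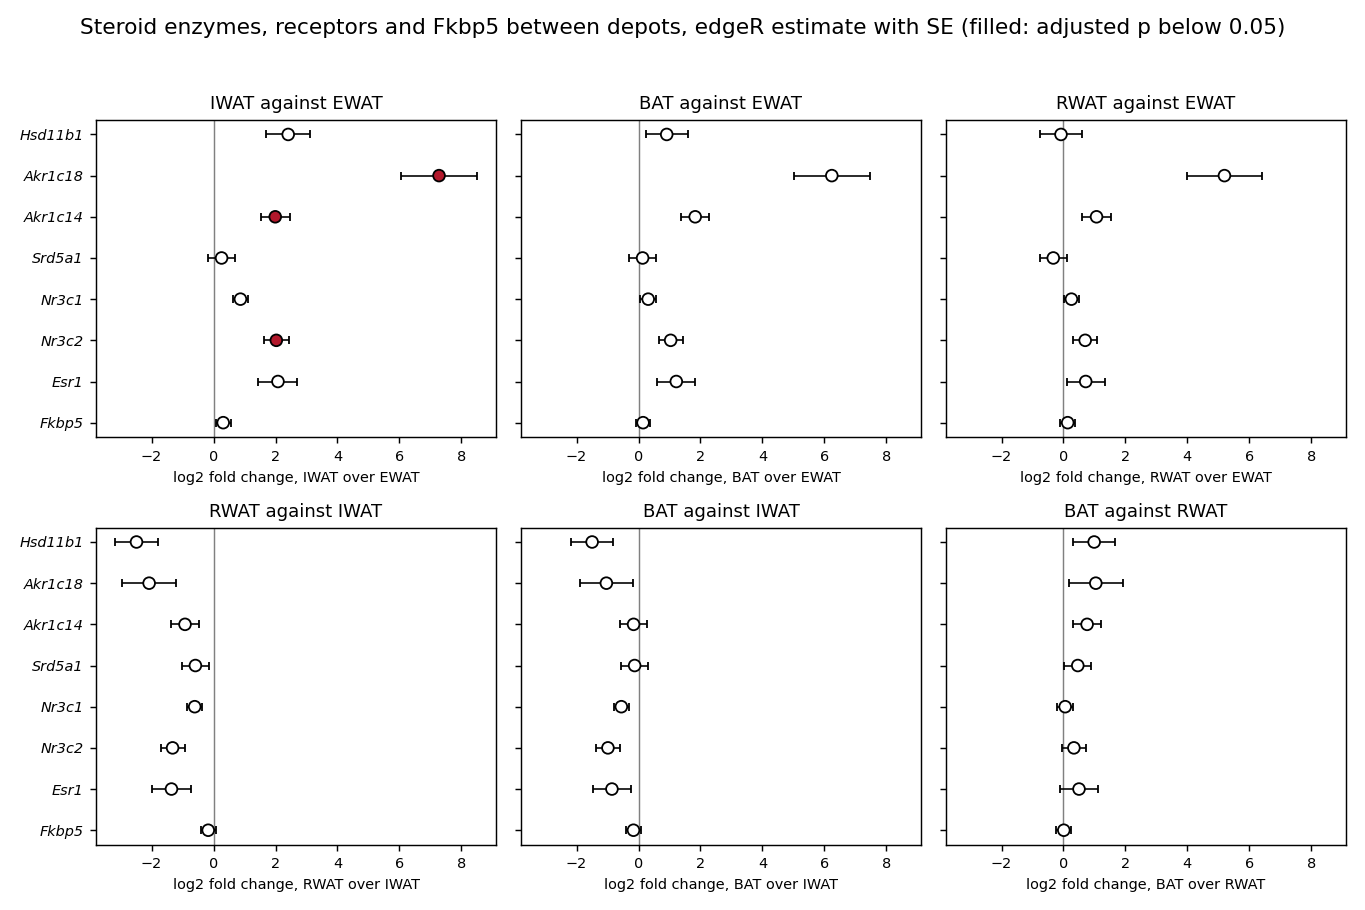
Log2 fold change of the 8 tested genes in 6 comparisons of depots (edgeR estimate, bar: SE), the first-named depot over the second. Filled points, adjusted p below 0.05, appear in IWAT against EWAT for Akr1c18 (7.28), Nr3c2 (2.03) and Akr1c14 (1.99).

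In the remaining comparisons edgeR called 0 of the 8 genes. In the test of any difference among the 4 depots, which 0.211% of all genes passed, the adjusted p in edgeR ran from 0.0700 for Akr1c18 to 0.858 for Fkbp5. Unadjusted, 6 of the 8 genes were below 0.05, as were 19.6% of all genes. DESeq2 called 5 of the 8 in that test (Akr1c18, Akr1c14, Hsd11b1, Esr1 and Nr3c2), limma-voom called 0 and limma on log2(TPM + 0.5) called 1, Akr1c18. The share of 0.211% (40 genes) is that of edgeR. Over 25 alternatives, these tools among them, the count of all genes called in that test ran from 7 to 2421. Without BAT 2, edgeR called 3: Akr1c18, Hsd11b1 and Nr3c2.

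BAT against EWAT passed in 0.0845% of all genes, and 3 of the 8 genes had an unadjusted p below 0.05 beside 9.41% of all genes. The log2 fold change of Akr1c18 was 6.24 ± 1.22 (SE; edgeR, adjusted p = 0.111), and that of Akr1c14 was 1.83 ± 0.46 (adjusted p = 0.179 in edgeR). DESeq2 called both, and limma-voom called 0. Over 26 alternatives, these tools among them, the count of all genes called ran from 1 to 477, against 16 in edgeR. On the CPM scale these 2 genes had every BAT library above every EWAT library, as had 5.49% of all genes. In RWAT against EWAT, which 0.00528% of all genes passed, Akr1c18 had a log2 fold change of 5.20 ± 1.21 (edgeR, adjusted p = 0.475). Akr1c18 and Akr1c14 had an unadjusted p below 0.05, beside 4.52% of all genes. On the CPM scale Akr1c18 alone did not overlap (3.97% of all genes), whereas in TPM Esr1 and Nr3c2 did not overlap either. The share of all genes without overlap in TPM is not given for RWAT against EWAT. There the median log2 TPM ratio over all genes was 0.14, higher in RWAT. DESeq2 called Akr1c18 while limma-voom called 0. All genes called in RWAT against EWAT numbered 0 to 130 over 26 alternatives, against 1 in edgeR.

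In RWAT against IWAT, 0% of all genes passed in edgeR, and 5 of the 8 genes had an unadjusted p below 0.05 beside 19.8% of all genes. DESeq2 called 2, Hsd11b1 and Nr3c2, both lower in RWAT, and limma-voom called 0. Here the count of all genes called ran from 0 to 1160 over 26 alternatives, these tools among them. On the CPM scale 5 of the 9 genes had every RWAT library below every IWAT library, as had 15.2% of all genes. BAT against IWAT passed in 0.0264% of all genes. Unadjusted, 3 of the 8 genes were below 0.05 (12.4% of all genes), and 0 were called by DESeq2 or limma-voom. In CPM Nr3c2 alone did not overlap, with BAT lower (7.91% of all genes). BAT against RWAT, passed by 0.0158% of all genes, gave 0 of the 8 genes by edgeR, DESeq2 or limma-voom. In edgeR 0 had an unadjusted p below 0.05 (4.36% of all genes). On the CPM scale 0 of the 9 genes were free of overlap, beside 8.5% of all genes. BAT against the average of the 3 white depots, passed by 0.0528% of all genes, gave 0 by all of these tools and 2 at an unadjusted p below 0.05, Akr1c18 and Akr1c14 (4.66% of all genes). With BAT 2 and BAT 3 left out for their low Ucp1, BAT was 1 library, assumed to vary like the other depots. Akr1c18 in BAT against EWAT then had a log2 fold change of 4.86 (edgeR, adjusted p = 0.234), and the count of 0 in the comparisons with BAT says little in so small a design. These comparisons share libraries, so they are not independent of one another.

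Likeness of pattern across the 12 libraries was measured by the Pearson r of log2 CPM, as a description of libraries that share depth and tissue composition. The highest r were 0.938 for Esr1 and Nr3c2, 0.917 for Akr1c18 and Akr1c14, and 0.916 for Hsd11b1 and Nr3c1. Some pairs across these were nearly as high, such as Akr1c14 and Nr3c2 (0.858), Akr1c14 and Esr1 (0.851) and Hsd11b1 and Esr1 (0.848). Others were lower: Akr1c18 and Hsd11b1 (0.585), Akr1c14 and Hsd11b1 (0.683), Akr1c14 and Nr3c1 (0.701) and Akr1c18 and Nr3c1 (0.708). Whether these 6 genes form separate sets was not tested. Srd5a1 and Fkbp5 had an r of 0.646 with each other and at most 0.306 with any of those 6. Over all tested genes with a proper symbol, the closest to Akr1c18 were Efhd1 (0.983), Islr2 (0.981) and Nipal2 (0.980). The closest to Akr1c14 were Fbxo27 (0.954), Opcml (0.949) and H2-M9 (0.947), and those to Hsd11b1 were Sowahc (0.980), Mkrn2 (0.980) and Pde1a (0.971). For the receptors, Esr1 was closest to Fzd4 (0.992), Tspan12 (0.991) and Tusc5 (0.991), Nr3c1 to Sqrdl (0.980), Pik3r1 (0.971) and Pank3 (0.970), and Nr3c2 was close to Galnt15 (0.969) and Ptpdc1 (0.959). Srd5a1 was close to Cirh1a (0.953) and Stub1 (0.913), and Fkbp5 to Mon2 (0.911), Dnajc3 (0.889) and Ipo4 (0.871).

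Other genes of steroid metabolism and response were counted in IWAT against EWAT, where 9.03% of all genes passed. Of 18 tested among 33 other steroid enzymes, 1 passed, Fdx1, the electron donor of mitochondrial steroid hydroxylases. It stood at 36.4, 32.0 and 33.5 TPM in IWAT and 13.7, 8.55 and 13 TPM in EWAT, without overlap, with a log2 fold change of 1.40 ± 0.37 (SE; edgeR, adjusted p = 0.0425), and 12 of 26 alternatives put it outside the threshold. Of 5 tested among 10 genes of the Akr1c cluster and its relatives, 2 passed, Akr1c18 and Akr1c14 themselves. Their neighbour Akr1c13 averaged 13.6 ± 2.78 TPM in IWAT and 20.1 ± 11.2 TPM in EWAT, with a log2 fold change of -0.86 ± 0.33 (edgeR, adjusted p = 0.113).

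Of 8 other steroid receptors and binding proteins 2 passed, both higher in IWAT, among them Pgrmc2. Pgrmc2 stood at 34.8, 63.9 and 53.7 TPM in IWAT and 33.4, 15.1 and 25.3 TPM in EWAT. In TPM the lowest IWAT library lay just above the highest EWAT library. On the CPM scale the gap was wider, with 75.4 to 84.9 CPM in IWAT and 41.3 to 49.6 CPM in EWAT. Its log2 fold change was 0.83 ± 0.19 (SE; edgeR, adjusted p = 0.0288). The call was lost in 8 of 26 alternatives. Among them were the replicate block and the fits without EWAT 1, EWAT 3, IWAT 1 or IWAT 2, where the adjusted p was 0.0790 to 0.0871 in edgeR. Of 14 receptor chaperones and coregulators, edgeR called 0 and limma-voom 0, and DESeq2 called 3, beside 3780 of all genes. In edgeR 4 of the 14 had an unadjusted p below 0.05, beside 29.7% of all genes.

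Of 20 glucocorticoid target genes, 5 passed, 3 higher and 2 lower in IWAT than in EWAT, with a median log2 fold change of 0.43 over the list. The transcription factors Cebpd, with 1.14 ± 0.18 (SE; edgeR, adjusted p = 0.0141), and Klf9, with 1.44 ± 0.28 (adjusted p = 0.0202 in edgeR), and the clock gene Per1, with 0.96 ± 0.23 (adjusted p = 0.0333 in edgeR), were higher in IWAT. Klf9 stood at 24.8, 45.3 and 36.7 TPM in IWAT and 18.9, 6.90 and 9.71 TPM in EWAT, without overlap. Sgk1, a kinase that acts on ion transport, stood at 23.1, 42.5 and 47.9 TPM in IWAT and 165, 31.7 and 90.8 TPM in EWAT and overlapped in TPM, though not in CPM. Its log2 fold change was -1.35 ± 0.32 (SE; edgeR, adjusted p = 0.0312). Sdc4, a cell surface proteoglycan named here because it completes the count, had a log2 fold change of -1.06 ± 0.25 (edgeR, adjusted p = 0.0308). Tsc22d3, another target often used as a readout of the glucocorticoid receptor, averaged 106 ± 3.61 TPM in IWAT and 53.8 ± 8.49 TPM in EWAT, with a log2 fold change of 0.77 ± 0.41 (edgeR, adjusted p = 0.232); it was chosen after its values were seen. Over 26 alternatives the call was lost in 3 each for Cebpd and Klf9, 10 for Per1, 8 for Sgk1 and 9 for Sdc4. Of the same 20 genes, DESeq2 called 6 higher and 3 lower, beside 3780 of all genes in either direction. From limma-voom came 5 higher and 2 lower, and from limma on log2(TPM + 0.5) 4 higher and 0 lower.

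Of 8 tested among 10 oestrogen and progesterone target genes, 3 passed and all were lower in IWAT than in EWAT. Esr1 had the opposite sign but was outside the threshold, and whether these genes follow Esr1 or Pgr in fat was not tested. Hand2, a transcription factor, stood at 0.05, 0.03 and 0 TPM in IWAT and 1.3, 0.99 and 0.54 TPM in EWAT. Its summed count per library size in IWAT was 0.0274 times that in EWAT (95% exact interval 0.00557 to 0.0821, 3 against 118 counts), the fitted log2 fold change was -5.05 ± 1.00 (SE; edgeR, adjusted p = 0.0211), and it also passed the test of any depot difference (edgeR, adjusted p = 0.0483). Wnt4, a secreted ligand, stood at 0.19, 1.66 and 0.85 TPM in IWAT and 4.76, 3.36 and 2.83 TPM in EWAT, a log2 fold change of -2.49 ± 0.52 (edgeR, adjusted p = 0.0228). Areg, a ligand of the epidermal growth factor receptor, had 3 counts in IWAT and 92 in EWAT over 3 libraries each. Per library size its count in IWAT was 0.0352 times that in EWAT (95% exact interval 0.00712 to 0.106), with an adjusted p of 0.0432 in edgeR. Over 26 alternatives the call was lost in 10 for Areg and in 3 each for Hand2 and Wnt4. In these related lists, edgeR called 0 genes in either direction without EWAT 3 or without IWAT 1, and 1 without IWAT 2, a glucocorticoid target. The count of all genes called in IWAT against EWAT ran from 16 to 2397 over the fits that left out 1 or 2 libraries.

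Markers of cell types differed between IWAT and EWAT as well. The summed TPM of 10 adipocyte markers was 17362 to 22964 in IWAT and 1645 to 5786 in EWAT, without overlap, and their median log2 fold change was 2.24, beside 2.01 for the steroid genes. By edgeR 0 of these 10 passed and 7 had an unadjusted p below 0.05, beside 29.7% of all genes. DESeq2 called 6, beside 3780 of all genes, and limma-voom 0. With limma on log2(TPM + 0.5), 8 of the 10 were called, all higher in IWAT. Of 10 fibroblast progenitor markers, 8 were higher in IWAT, with sums of 1190 to 2730 TPM in IWAT and 328 to 658 TPM in EWAT. Of 10 mesothelium markers, 6 were lower in IWAT, with sums of 2.19 to 3.28 TPM in IWAT and 21.7 to 87.8 TPM in EWAT. Of 10 macrophage markers, 2 were lower, with sums of 1943 to 3660 TPM in IWAT and 5737 to 11482 TPM in EWAT, and of 8 smooth muscle markers, 4 were lower. The part of these cell types in the results for the steroid genes was not tested.

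**Figure D3:**
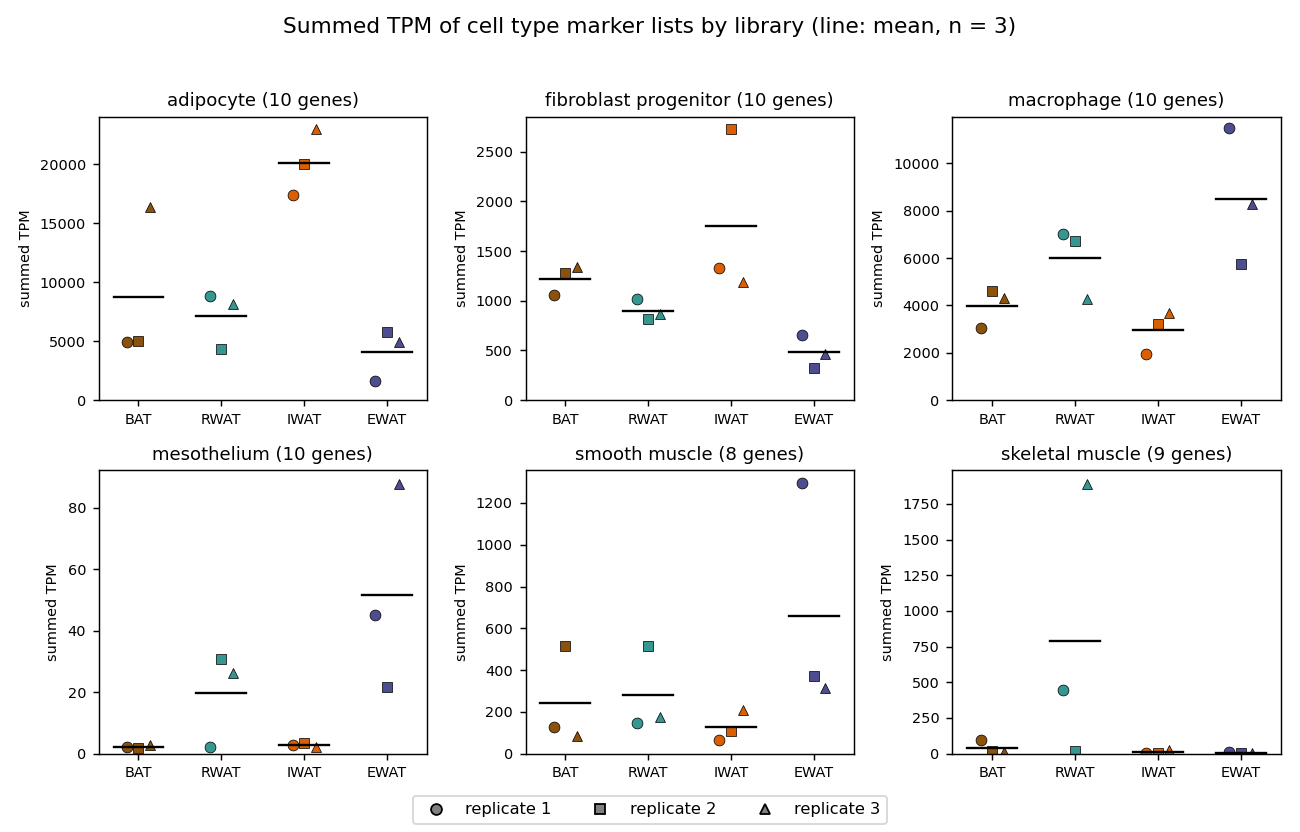
Summed TPM of 6 lists of cell type markers in each library of BAT, RWAT, IWAT and EWAT (line: mean, n = 3 libraries). Adipocyte sums run from 17362 to 22964 in IWAT and from 1645 to 5786 in EWAT, mesothelium sums are highest in EWAT 3 (87.8), and the skeletal muscle sum is highest in RWAT 3 (1891).

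Markers of tissues near these depots that make or handle steroids were low but not all at 0. Hsd3b1 and Nr5a1 of the adrenal cortex stood at 0.04 and 0.03 TPM at most, and Cyp11b1 at 0.12 TPM at most. Cyp11a1, which begins steroid synthesis from cholesterol, was higher, at 2.65, 1.11 and 0.30 TPM in IWAT and 0.13, 0.14 and 0.20 TPM in EWAT, with a log2 fold change of 2.37 ± 0.97 (edgeR, adjusted p = 0.129). Star, which carries cholesterol into mitochondria, stood at 0.61, 1.79 and 0.98 TPM in IWAT and 2.68, 0.91 and 2.76 TPM in EWAT, with a log2 fold change of -1.11 ± 0.43 (edgeR, adjusted p = 0.109). The part of such cells in the results was not tested. The adrenal list summed to 25.5 TPM in its highest library, IWAT 3, of which 23.6 TPM came from Mc2r, the corticotropin receptor, which mouse adipocytes also express. Hsd17b3 and Tnp1 of the testis were at 0 in all 12 libraries, and the highest sum of that list, 7.03 TPM in IWAT 2, was mostly Insl3 (6.97 TPM). The epididymis list reached 0.57 TPM in IWAT 1 and the kidney list 0.73 TPM in RWAT 2. Cyp19a1, the aromatase that makes oestrogen, was listed at 0 in BAT, RWAT and IWAT and at 0.02 TPM at most in EWAT.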

How the data were processed

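Ribosomal RNA was removed from total RNA before sequencing from 1 end over 75 bp. The submitters' processing notes name Trimmomatic 0.36, RSEM 1.3.0, DESeq2 1.10.1 and the build GRCm38.p4. Neither an aligner nor the release of the annotation was given in the sources used here. Per the file headers, the deposited table of each library holds RSEM expected counts (estimated read counts, not normalized), which were rounded and used for every test. The deposited TPM, scaled by effective length by the authors' RSEM run, was used for levels. The deposited effective length served 1 alternative, and the posterior SD of each count showed how firmly reads were assigned.

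In edgeR 4.0.16, low genes were removed with filterByExpr (minimum count 10), libraries were scaled by TMM (0.846 to 1.14), and 1 quasi-likelihood fit with a coefficient per depot over 12 libraries (biological coefficient of variation 0.385) gave two-sided F tests, adjusted by Benjamini-Hochberg over 18942 genes, with a threshold of 0.05. An SE is the absolute log2 fold change divided by the square root of F. R 4.3.3, DESeq2 1.42.0 and limma 3.58.1 were used for alternatives, and the tests were checked on simulated data. Intervals and floors (3 counts) cover counting error only, since no molecular identifiers were described. Of the 47729 gene IDs, 47224 were found in GENCODE M21.

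All 9 genes are named. Of each related list, the genes called in any comparison are named if 4 or fewer, otherwise the 4 with the smallest p in the test of any depot difference. For likeness, the 3 genes with the highest r are named. Some genes that these rules select are not reported here, and genes named outside the rules give context. The genes and the lists were chosen with earlier results of these data known. Libraries with the same replicate number deviated together (correlation over 0.1 in all 3 pairs) in BAT against RWAT alone of the 6 pairs of depots, so the replicate block stayed an alternative. Leaving out EWAT 1 and BAT 2 (few adipocyte transcripts by Adipoq, at 52.1 and 221 TPM), RWAT 1 and RWAT 3 (muscle transcripts), or BAT 2 and BAT 3 (low Ucp1) was chosen after seeing the data. The sum of the adipocyte list was 1645 TPM in EWAT 1 but 5022 TPM in BAT 2, beside 4926 TPM in BAT 1.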

Additional observations from a re-analysis of the deposited data

How the results depend on the processing

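The number of the steroid genes called changed with the processing chiefly in IWAT against EWAT, where the 3 calls became 5 with no filter on low counts, 6 with DESeq2 and 5 with limma on log2(TPM + 0.5), 6 without BAT 2 and BAT 3, and 0 to 6 over the fits that left out 1 library. The count of all genes called there, 1710, became 3780 with DESeq2, 733 without EWAT 1 and BAT 2, 759 without RWAT 1 and RWAT 3, and 16 to 2397 with 1 library left out. With the replicate number as a block, 639 genes and 2 steroid genes (Akr1c18 and Nr3c2) were called; same-numbered IWAT and EWAT libraries deviated together in 1 of 3 pairs. In the test of any depot difference the count of 0 became 2 with no filter, 5 with DESeq2, 1 with limma on log2(TPM + 0.5) and 0 to 3 with 1 library left out. In BAT against EWAT it became 1 with no filter and 2 with DESeq2. DESeq2 called 1 gene in RWAT against EWAT and 2 in RWAT against IWAT. The count of all genes called moved over the alternatives too. It ran from 7 to 2421 in the test of any depot difference and from 1 to 477 in BAT against EWAT. In RWAT against EWAT it was 0 to 130, and in RWAT against IWAT 0 to 1160. The cause of these shifts was not tested. Srd5a1 in IWAT against EWAT changed sign without IWAT 1 and ran from -0.15 to 0.43 on the log2 scale with 1 library left out. With 3 libraries a depot and 5 counts behind the EWAT level of Akr1c18, the size of its fold change is poorly known: the counting interval in the report leaves out the spread between libraries, and the log2 fold change ran from 4.56 to 11.1 over the alternatives. Pgr could not be tested.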
